A study of Homo sapiens with 4 samples.

Results

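The transcription factor NRF2, encoded by NFE2L2, switches on genes that detoxify electrophiles and oxidants. In unstressed cells KEAP1, an adaptor of the CUL3 ubiquitin ligase, holds NRF2 and marks it for breakdown, and reactive molecules that modify KEAP1 cysteines stop this. NRF2 and its relative NRF1 (NFE2L1) bind antioxidant response elements in DNA as partners of the small MAF proteins MAFF, MAFG and MAFK, which have no activation domain of their own, and the heme-sensitive repressor BACH1 uses the same small MAF partners at overlapping sites. The autophagy receptor p62 (SQSTM1) competes with NRF2 for KEAP1, and TRIM16 has been reported to bind NRF2, KEAP1 and p62 in human cells. SQSTM1 and MAFG are themselves known NRF2 target genes, which closes loops in the circuit. The 10 genes of this circuit were found by symbol, as NFE2L2, NFE2L1, KEAP1, CUL3, BACH1, MAFF, MAFG, MAFK, SQSTM1 and TRIM16, among 28395 rows of the deposited count table. All 10 passed the filter on low counts, which left 14841 genes for testing.

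Transcripts were counted in 4 libraries of A375, an established human melanoma line labelled wild type, with skin as the tissue of origin. The cells had been kept for 6 h in medium with serum and 0.01% ozonated olive oil, an oil whose unsaturated fatty acids have reacted with ozone, or with serum and 0.01% olive oil. Each group had 2 libraries, numbered 1 and 2 in the titles. The labels do not say whether libraries came from separate cultures, so the spread behind the p-values is that of these 4 libraries and may be technical, and both groups come from a single line.

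Total counts were 23571726 and 22245807 in the ozonated olive oil libraries and 27772480 and 26609495 in the olive oil libraries. Libraries numbered 1 and numbered 2 fell apart on the first principal component (66.4% of the variance), and the oils on the second (21.3%). For this reason differences between the oils are also given within each number, as the log2 ratio of 1 ozonated to 1 olive oil library, which carries no test. Of 12 melanocyte and melanoma markers, 6 lay at 1 CPM (counts per 1e+06 counts, with TMM-scaled library sizes) or more in every library, among them SOX10 (277.9 to 360.9 CPM) and MITF (24.2 to 36.1 CPM). The pigment genes PMEL, TYR, DCT and TYRP1 stayed under 1 CPM, with no count for TYR, and MLANA lay between 0.223 and 1.35 CPM. PRAME, also among the 12, had no count in any library. The sum of these markers was 3027 and 3161 CPM with the ozonated oil and 2630 and 2760 CPM with olive oil, nearly all of it VIM. Summed keratinocyte markers were at 87.7 to 96.0 CPM with the ozonated oil and 95.1 to 98.8 CPM with olive oil, mostly from KRT10. Fibroblast markers summed to 13.2 and 13.4 CPM with the ozonated oil and 11.3 and 12.3 CPM with olive oil. Endothelial and leukocyte markers differed mainly by number: the endothelial sum was 13.7 and 4.90 CPM with the ozonated oil and 14.2 and 6.64 CPM with olive oil, and the leukocyte sum 85.9 and 45.3 CPM against 70.8 and 32.8 CPM, most of it CD68. CD3E and TP63 had no count in any library. The part of these markers in the results was not tested.

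The windows around the annotated starts (250 bases before to 50 after, RefSeq, GRCh38.p14) were read for 9 of the 10 genes, in 18 windows. They were searched on both strands for TGACNNNGC, the core of the antioxidant response element, for TGANTCA, the AP-1 type site that also forms the centre of small MAF and BACH1 sites, and for the full MAF recognition palindrome, which contains TGANTCA at its centre. The 3 windows that hold a match are shown, each on the gene's own strand with matches in capitals. The genes are BACH1 at chr21:29298672-29298971 (plus strand), MAFF at chr22:38201744-38202043 (plus strand) and KEAP1 at chr19:10502722-10503021 (minus strand).
BACH1: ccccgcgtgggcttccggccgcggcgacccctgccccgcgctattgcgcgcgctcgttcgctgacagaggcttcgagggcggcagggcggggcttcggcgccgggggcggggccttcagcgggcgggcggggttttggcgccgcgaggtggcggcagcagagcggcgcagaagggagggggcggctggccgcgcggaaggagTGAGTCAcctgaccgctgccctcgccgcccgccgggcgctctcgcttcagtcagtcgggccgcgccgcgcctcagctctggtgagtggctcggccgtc
MAFF: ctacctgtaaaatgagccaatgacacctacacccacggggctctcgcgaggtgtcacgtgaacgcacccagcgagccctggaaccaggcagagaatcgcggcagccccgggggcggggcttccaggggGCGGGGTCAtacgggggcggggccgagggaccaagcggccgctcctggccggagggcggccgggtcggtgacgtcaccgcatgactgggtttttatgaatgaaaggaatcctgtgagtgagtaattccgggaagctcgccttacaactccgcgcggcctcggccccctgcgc
KEAP1: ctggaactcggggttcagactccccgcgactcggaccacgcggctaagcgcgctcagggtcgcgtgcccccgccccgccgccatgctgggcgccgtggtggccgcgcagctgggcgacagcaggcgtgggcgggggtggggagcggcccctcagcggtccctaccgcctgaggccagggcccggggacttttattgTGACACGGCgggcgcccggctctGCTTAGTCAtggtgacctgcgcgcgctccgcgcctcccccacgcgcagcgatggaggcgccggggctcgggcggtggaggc
The BACH1 window holds TGAGTCA, which begins 48 bases before the start and reads as TGANTCA on both strands. The MAFF window holds TGACCCCGC on the opposite strand, and the first capital of this match as shown lies 122 bases before the start. The KEAP1 window holds TGACACGGC, which begins 54 bases before the start, and TGACTAAGC on the opposite strand. The first capital of the latter as shown lies 31 bases before the start. Over all 35116 windows of the table, 13.3% hold TGACNNNGC, 7.71% hold TGANTCA and 0% hold the full palindrome. Among the windows of these genes the counts were 2, 1 and 0 of 18. Windows of SQSTM1, MAFG, TRIM16, NFE2L2, NFE2L1 and CUL3 hold none of the 3 patterns within these bases.

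The comparison of ozonated olive oil with olive oil asked which of these transcripts differ after 6 h. The mRNAs of NRF2, NRF1, KEAP1 and CUL3 had log2 fold changes from 0.01 to 0.16. Those of the repressor BACH1, the 3 small MAFs, SQSTM1 and TRIM16 had log2 fold changes from 0.52 to 0.90. Both ozonated libraries stood above both olive oil libraries for each of these 6, and also for NFE2L2 and KEAP1. For KEAP1 the closest libraries of the oils were at 119.07 (ozonated) and 118.98 CPM (olive oil). Of all tested genes, 15.3% had both ozonated libraries above and 15.7% had both below. SQSTM1 was the most different, at 1870.3 ± 230.8 CPM with the ozonated oil and 1001.9 ± 135.7 CPM with olive oil (SD, n = 2 each). In RNA from a whole culture, a higher level in every cell and a larger share of cells with a high level cannot be told apart.

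By the quasi-likelihood test of edgeR, with Benjamini-Hochberg adjustment over all genes, none of the 10 passed (adjusted p = 0.9998 for each), nor did any of the 14841 tested genes (0%, smallest adjusted p = 0.748). Without adjustment, 5 of the 10 had a p under 0.05, all higher: SQSTM1, MAFG, TRIM16, MAFF and MAFK. Over all tested genes 570 had such a p (3.84%), 295 of them higher (1.99%). The ozonated libraries both stood above the olive oil ones for 8 of the 10 genes and both below for 0, against 15.3% and 15.7% of all tested genes. Within both numbers 9 were higher and 0 lower, against 31.6% and 31.1% of all tested genes. The median log2 fold change of the 10 was 0.52 (0.28 within number 1 and 0.51 within number 2), beside 0.0005 over all tested genes. The 10 were chosen with earlier results of these data known, so these comparisons with all genes are descriptive and test nothing. Other tools called some of them: DESeq2 called SQSTM1 (adjusted p = 0.00029) and MAFG (adjusted p = 0.0229) among 65 genes (0.438%), and the edgeR exact test called SQSTM1 (adjusted p = 0.021) among 35 genes (0.236%). Over the 13 alternatives the adjusted p of SQSTM1 ran from 4.59e-06 to 1 and that of MAFG from 0.000632 to 1, both lowest where edgeR took the number as a block, which called 5.67% of all tested genes and 6 of the 10.

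**Figure D1:**
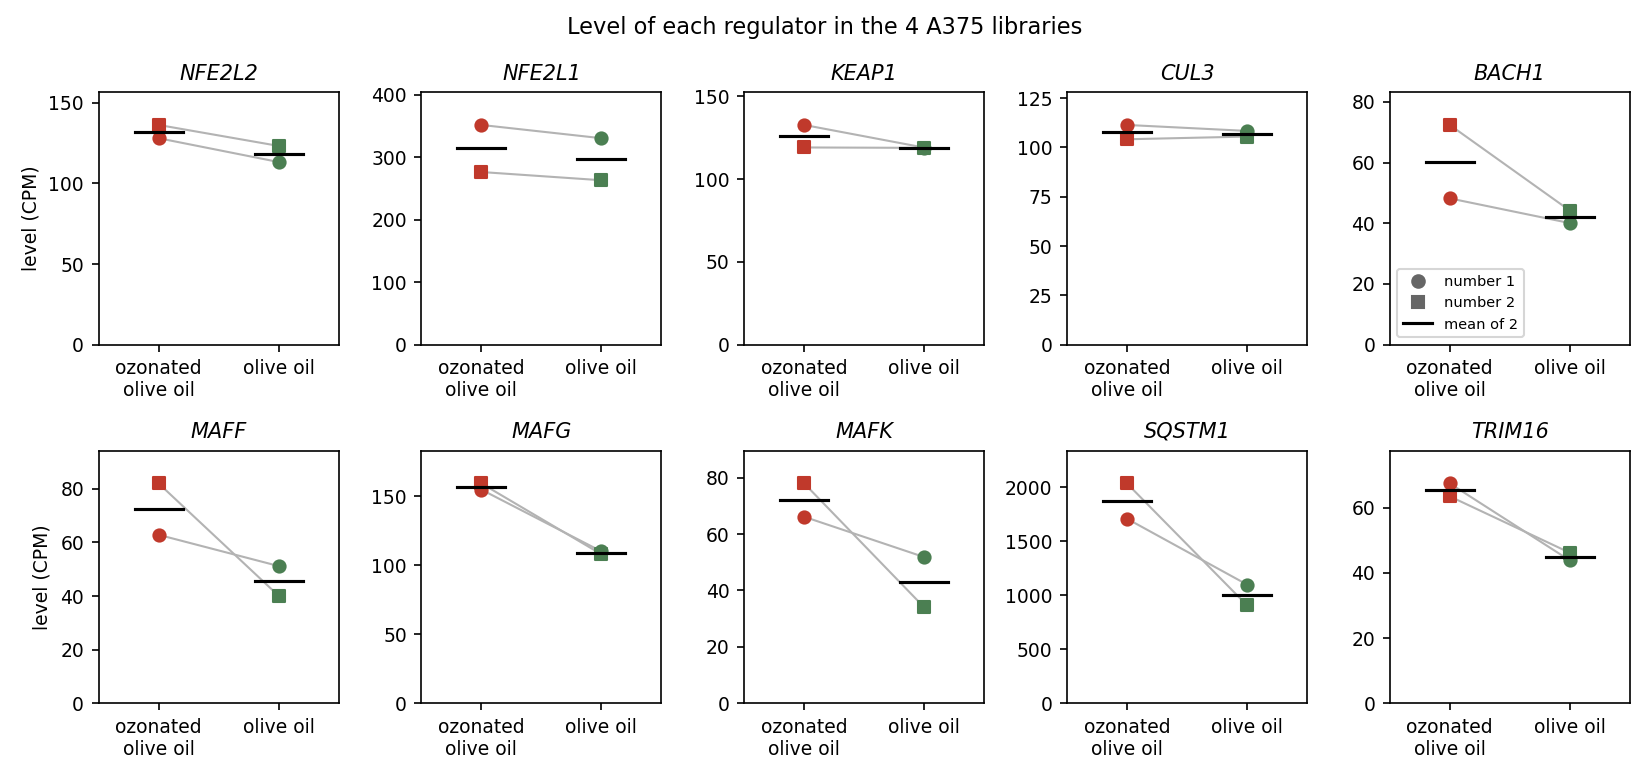
Level in CPM (TMM-scaled, y axis from 0) of each of the 10 regulators in the ozonated olive oil and olive oil libraries. Circles are number 1, squares number 2, grey lines join equal numbers and black bars are means of 2 libraries. Both ozonated libraries lie above both olive oil libraries in 8 of the 10 panels, by very little for KEAP1. NFE2L1 separates by number, and for CUL3 the oils overlap.

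NFE2L2 (ENSG00000116044, chromosome 2, 177230303 to 177264727), which encodes NRF2, lay at 128.1 and 136.3 CPM with the ozonated oil and at 113.3 and 123.3 CPM with olive oil. The groups did not overlap, but the gap between them was smaller than the distance between the olive oil libraries. Its log2 fold change was 0.16 ± 0.11 (SE), with 0.18 and 0.14 within the numbers. It was 0.10 without olive oil replicate 1. NFE2L1 (ENSG00000082641, chromosome 17, 48048359 to 48061545) encodes NRF1, which drives proteasome genes when the proteasome is overloaded. It lay at 351.7 and 276.4 CPM with the ozonated oil and at 330.5 and 263.2 CPM with olive oil. Its libraries were ordered by number: in number 2 against number 1 it was lower by 0.35 (ozonated) and 0.33 (olive oil) on the log2 scale, more than its difference between the oils of 0.08 ± 0.18 (SE). That value became -0.07 when olive oil replicate 2 was left out, -0.10 when ozonated olive oil replicate 1 was, and 0.25 when olive oil replicate 1 was.

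KEAP1 (ENSG00000079999, chromosome 19, 10486125 to 10503356) lay at 132.7 and 119.1 CPM with the ozonated oil and at 119.0 and 118.8 CPM with olive oil. Only the ozonated library numbered 1 stood apart, and its within-number ratios were 1.11 and 1.002. Counting error alone gives these ratios exact binomial 95% intervals of 1.06 to 1.17 and 0.951 to 1.06. The log2 fold change was 0.08 ± 0.11 (SE), and 0.002 without ozonated olive oil replicate 1. CUL3 (ENSG00000036257, chromosome 2, 224470150 to 224585363), the scaffold of the ligase, lay at 111.4 and 104.1 CPM with the ozonated oil and at 108.4 and 105.5 CPM with olive oil. The ozonated libraries spanned the olive oil libraries, the within-number ratios were 1.03 and 0.987, and both counting intervals (0.975 to 1.08 and 0.934 to 1.04) include no difference. Its fitted value of 0.01 ± 0.10 (SE) turned to -0.00094 with upper quartile scaling and to -0.032 with library totals alone.

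BACH1 (ENSG00000156273, chromosome 21, 29298922 to 29361894), the repressor of HMOX1 and of ferritin genes, lay at 48.2 and 72.4 CPM with the ozonated oil and at 40.1 and 44.2 CPM with olive oil. The olive oil libraries were close to each other, and the ozonated library numbered 2 stood well above the other 3. The log2 fold change was 0.52 ± 0.22 (SE, unadjusted p = 0.0654), with 0.27 within number 1 and 0.71 within number 2. Without ozonated olive oil replicate 2 it was 0.19, and without ozonated olive oil replicate 1 it was 0.78. Its counting intervals of the within-number ratios, 1.11 to 1.31 and 1.52 to 1.77, do not overlap. The difference between the within-number values cannot be tested with 1 library of each oil per number.

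The small MAF genes encode short leucine zipper proteins that are activating partners with NRF2 and repressing as homodimers. MAFG (ENSG00000197063, chromosome 17, 81918270 to 81931244) lay at 154.9 and 159.4 CPM with the ozonated oil and at 110.1 and 108.0 CPM with olive oil. It was the steadiest of the 6 higher genes: each oil's libraries differed by a few CPM, far less than the gap between the oils. The log2 fold change was 0.53 ± 0.10 (SE, unadjusted p = 0.0035), with 0.49 and 0.56 within the numbers and 0.51 to 0.55 with any library left out. MAFF (ENSG00000185022, chromosome 22, 38201994 to 38216511), an inducible small MAF gene, lay at 62.8 and 82.0 CPM with the ozonated oil and at 51.2 and 40.1 CPM with olive oil. Its groups did not overlap, and number 2 was the higher library with the ozonated oil and the lower with olive oil. The log2 fold change was 0.67 ± 0.20 (SE, unadjusted p = 0.0194), with 0.30 within number 1 and 1.03 within number 2. MAFK (ENSG00000198517, chromosome 7, 1530702 to 1543043) lay at 66.1 and 77.9 CPM with the ozonated oil and at 51.8 and 33.99 CPM with olive oil, the same order of libraries as MAFF. Its log2 fold change was 0.75 ± 0.23 (SE, unadjusted p = 0.0239), with 0.35 and 1.20 within the numbers, and it was 0.48 without olive oil replicate 2.

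**Figure D2:**
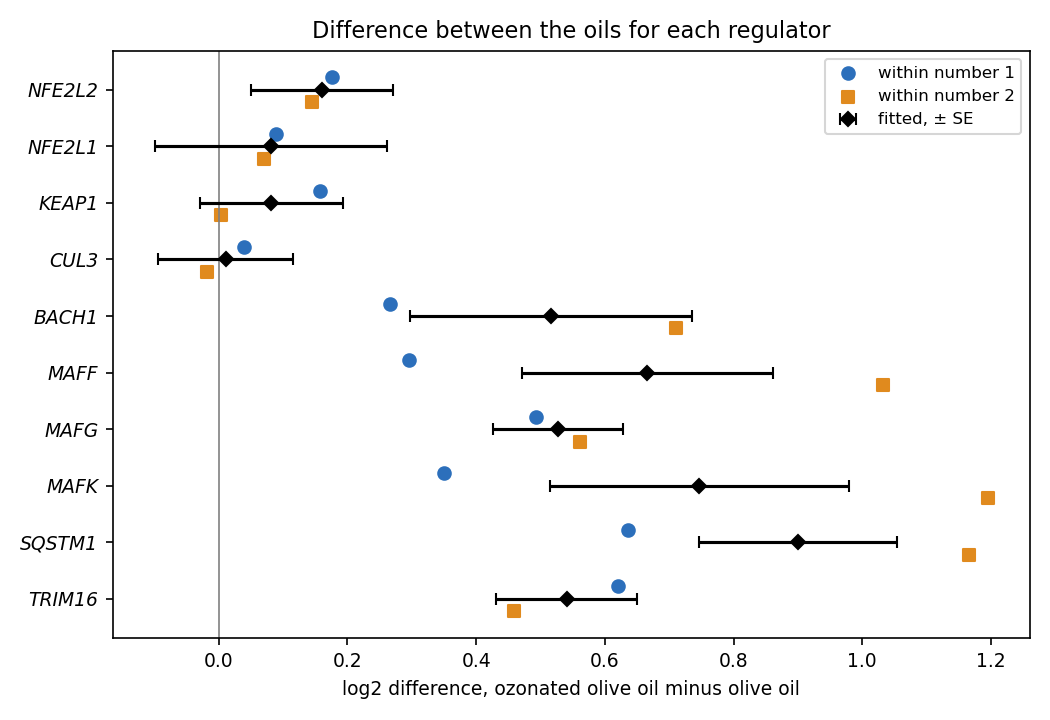
Log2 difference (x axis, ozonated olive oil minus olive oil) of each regulator. Diamonds with bars are fitted values ± SE over 4 libraries, circles and squares are the differences within number 1 and within number 2; the lower 6 genes lie right of the upper 4, and BACH1, MAFF, MAFK and SQSTM1 have the wider gap between numbers.

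SQSTM1 (ENSG00000161011, chromosome 5, 179806393 to 179838078), which encodes p62, lay at 1707 and 2033.5 CPM with the ozonated oil and at 1098 and 906 CPM with olive oil. The groups were separated by more than the distance between libraries of either oil. Its log2 fold change was 0.90 ± 0.15 (SE, unadjusted p = 0.00217), the 25th smallest p of all tested genes, and it was 1.55-fold higher within number 1 and 2.24-fold higher within number 2. With any library left out it was 0.77 to 1.04. SQSTM1 shares 1384 exon bases with MRNIP on the opposite strand, which lay at 3.45 and 3.79 CPM with the ozonated oil and 3.37 and 4.19 CPM with olive oil. TRIM16 (ENSG00000221926, chromosome 17, 15627966 to 15684311) lay at 67.5 and 63.5 CPM with the ozonated oil and at 43.9 and 46.2 CPM with olive oil. Libraries of the same oil were close, and the oils were apart. The log2 fold change was 0.54 ± 0.11 (SE, unadjusted p = 0.00456), with 0.62 and 0.46 within the numbers. Its near copy TRIM16L lay at 32.4 and 46.8 CPM with the ozonated oil and 28.02 and 31.4 CPM with olive oil (log2 fold change 0.41), and how reads shared by the copies were counted is not given in the sources used here. MAFK shares 809 exon bases with the opposite-strand gene TMEM184A, which stayed between 3.23 and 6.34 CPM. TRIM16 shares 1327 exon bases on its own strand with the annotated gene AC005324.3, which is not among the tested genes, so a strand setting would not separate their reads. NFE2L2 shares 489 exon bases on its own strand with AC019080.1, which stayed between 0.139 and 0.851 CPM. It also shares 54 with the opposite-strand gene AGPS, which lay between 119.3 and 150.6 CPM. NFE2L1, CUL3 and MAFG share 192, 598 and 224 exon bases with opposite-strand genes that are not among the tested genes.

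**Figure D3:**
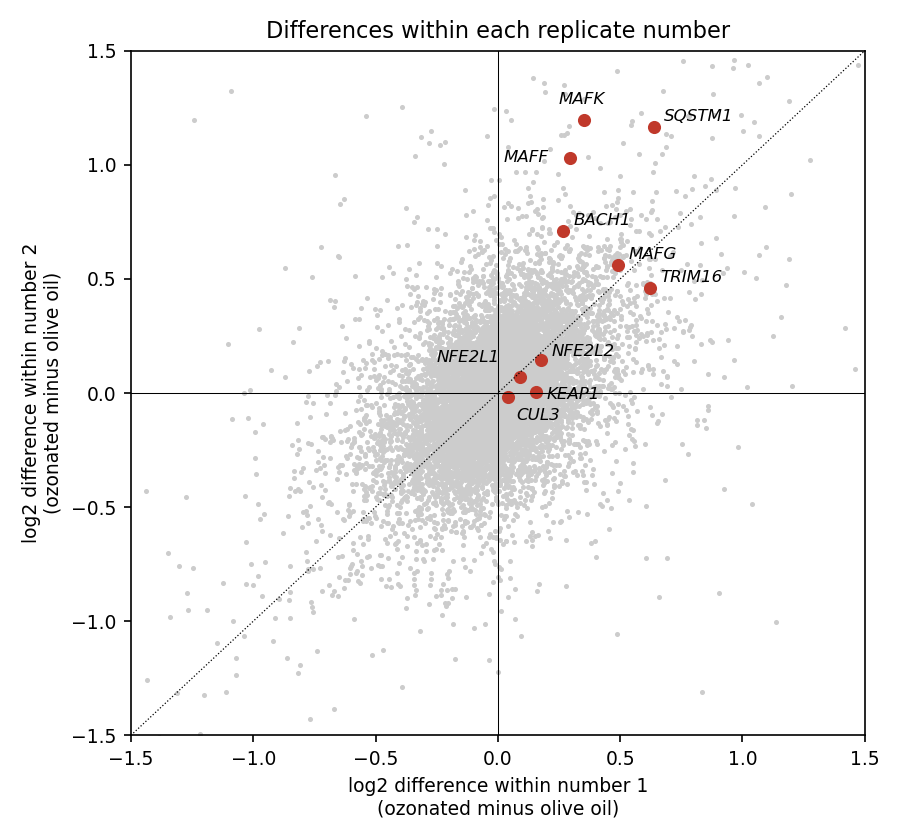
Log2 difference between the oils within number 1 (x axis) and within number 2 (y axis) for the 10 regulators (red) and the 11083 genes whose log2 CPM averaged 2 or more (grey, 54 genes lie outside the drawn range). The dotted line marks equal differences; MAFG, TRIM16 and NFE2L2 lie near it, and MAFF, MAFK, SQSTM1 and BACH1 lie above it.

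Among the 6 higher genes, the libraries of the same oil agreed to different degrees. MAFG and TRIM16 differed between libraries of the same oil by at most 0.09 on the log2 scale. For SQSTM1, MAFF and MAFK the log2 difference of number 2 minus number 1 was 0.25, 0.38 and 0.24 with the ozonated oil and -0.28, -0.35 and -0.61 with olive oil. That of BACH1 was 0.59 with the ozonated oil and 0.14 with olive oil. The median absolute difference between the numbers over all tested genes was 0.26 with the ozonated oil and 0.23 with olive oil.

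Levels were compared between the genes per kilobase of the longest coding transcript (GENCODE 29), since longer transcripts collect more reads. The order of the genes and the ratios between them depend on this length. For NFE2L2 it was 2853 bases, while its annotated exons merged cover 4531 bases. For KEAP1 these lengths were 2955 and 3155 bases. The order by merged exons was not computed. With the ozonated oil the order of mean CPM per kilobase was SQSTM1 (626.4 ± 77.3, SD, n = 2), NFE2L1 (65.8), NFE2L2 (46.3), KEAP1 (42.6), MAFG (31.2), MAFF (29.1), MAFK (21.4), TRIM16 (19.6), CUL3 (16.0) and BACH1 (10.5 ± 2.97). In that order the library values of NFE2L2 and KEAP1, of MAFG and MAFF, and of MAFK and TRIM16 overlapped. With olive oil SQSTM1 stood at 335.6 ± 45.4 and BACH1, again the lowest, at 7.30 ± 0.506 (SD, n = 2 each), and CUL3 (15.9) came before TRIM16 (13.5) and MAFK (12.7). There the library values of MAFK (15.4 and 10.1) spanned those of TRIM16 (13.1 and 13.8), and those of NFE2L2 and KEAP1 overlapped too. The transcript of p62 was thus the most abundant of the circuit in every library, at 12.7 and 16.9 times that of KEAP1 per kilobase with the ozonated oil and 9.13 and 7.55 times with olive oil.

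The small MAF transcripts summed to 75.6 and 87.7 CPM per kilobase with the ozonated oil and to 57.8 and 47.6 with olive oil. MAFG gave 40.6% and 36.1% of this sum with the ozonated oil and 37.8% and 45.0% with olive oil, so that its share did not separate the oils. MAFF gave 33.4% and 37.6% with the ozonated oil and 35.6% and 33.8% with olive oil, and MAFK gave 26.0% and 26.4% with the ozonated oil and 26.6% and 21.2% with olive oil. Per kilobase, small MAF transcripts stood at 1.68 and 1.84 times NFE2L2 with the ozonated oil and at 1.46 and 1.10 times with olive oil. Against BACH1 the small MAF ratio was 9.05 and 6.99 with the ozonated oil and 8.32 and 6.22 with olive oil, which overlap. The ratio of NFE2L2 to BACH1 was 5.37 and 3.81 with the ozonated oil and 5.72 and 5.64 with olive oil: the ozonated libraries lay below, the one numbered 1 by little. These ratios are of mRNA, depend on the transcript lengths used and say nothing of the proteins.

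**Figure D4:**
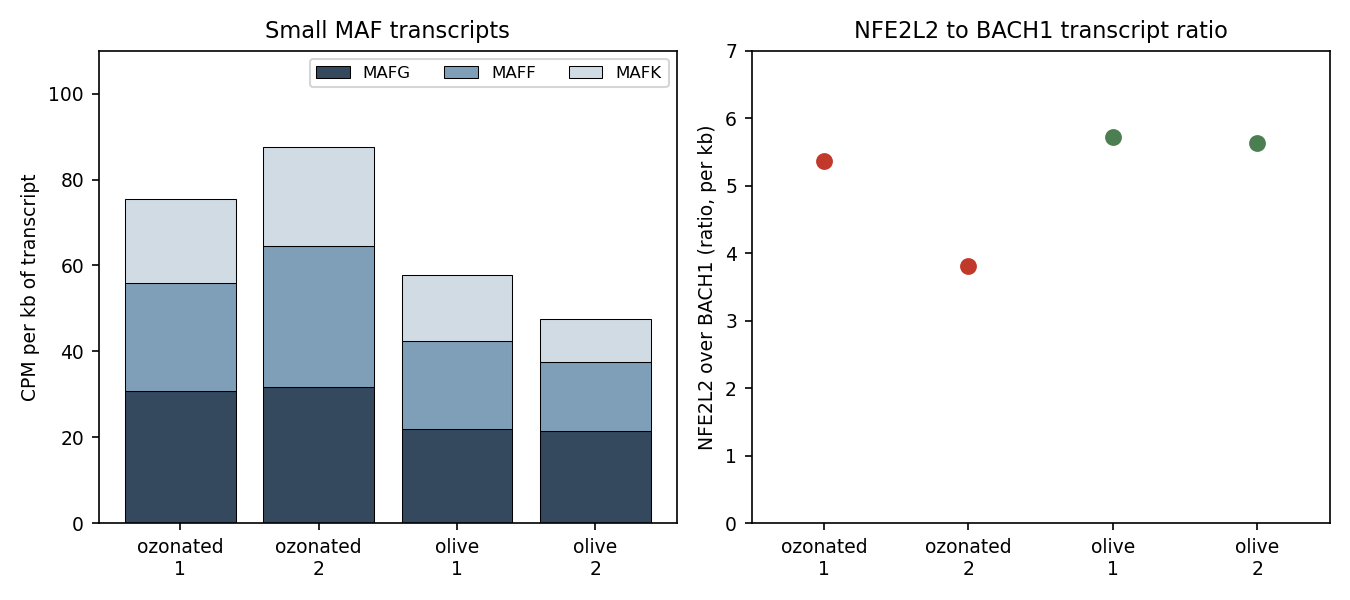
Left, stacked CPM per kilobase of MAFG, MAFF and MAFK in each library; right, ratio of NFE2L2 to BACH1 per kilobase. The small MAF sum is 75.6 and 87.7 in the ozonated olive oil libraries and 57.8 and 47.6 in the olive oil libraries; the ratio is lowest, at 3.81, in the ozonated library numbered 2.

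Genes with the most similar profiles were sought by the root mean square distance between centred log2 CPM over the 4 libraries, among 11082 other genes whose log2 CPM averaged 2 or more. The nearest to SQSTM1 were RLF (0.0336), SH3D21 (0.0448) and BMT2 (0.0964). The nearest to MAFG were AHR (0.0129), PNPLA8 (0.0161) and ANKRD12 (0.0188), and to MAFF they were DLG4 (0.0497), LRP2BP (0.0535) and TESK2 (0.0577). NFE2L2, whose profile was nearly flat, had NUTM2B-AS1 (0.00887) and RPL28 (0.00909) among the nearest. BACH1 had RNF44 (0.0369), OR51B4 (0.0388) and IKZF5 (0.0411). These distances are in log2 units and rest on 4 libraries.

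Other genes that control NRF2 or NRF1 were described from a list of 33, among them ligase parts, kinases, coactivators and proteins that process NRF1. Their median log2 fold change was 0.03, with 14 higher and 9 lower within both numbers. By the quasi-likelihood test 0 passed after adjustment, and 4 had an unadjusted p under 0.05, all higher. Beside this list and each list below stand the shares over all tested genes. Of these, 31.6% were higher and 31.1% lower within both numbers. An unadjusted p under 0.05 by that test was found for 3.84%, with 1.99% higher. The smallest p belonged to ULK1 and TBK1, kinases of autophagy that act on p62 or its partners, and to CHD6, a chromatin remodeller reported as an NRF2 cofactor. ULK1 lay at 49.8 and 41.8 CPM with the ozonated oil and at 35.8 and 32.4 CPM with olive oil (log2 fold change 0.42 ± 0.15, SE). TBK1 lay at 76.2 and 79.7 CPM against 65.8 and 61.0 CPM with olive oil (0.30 ± 0.11), and CHD6 had 0.30 ± 0.12. The most abundant, VCP, which extracts NRF1 from the endoplasmic reticulum, had 0.18 ± 0.12, and 0.09 without ozonated olive oil replicate 1. FBXO22, the ligase adaptor that degrades BACH1, lay at 60.1 and 61.8 CPM with the ozonated oil and at 60.2 and 61.8 CPM with olive oil, a near equality chosen for mention after its values were seen.

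The other CNC and MAF family factors (7 tested) had a median of -0.14, with 1 higher and 3 lower within both numbers, and none had an unadjusted p under 0.05. The repressor BACH2 lay at 1.914 and 1.897 CPM with the ozonated oil and at 1.10 and 1.63 CPM with olive oil. The large MAF gene MAF lay at 27.0 and 10.5 CPM with the ozonated oil and at 33.5 and 15.2 CPM with olive oil. NFE2L3 lay at 61.8 and 45.7 CPM against 73.2 and 45.3 CPM with olive oil. MAF and NFE2L3 differed more by number than by oil, and their values of -0.38 and -0.14 turned to 0.30 and 0.24 when olive oil replicate 1 was left out, and to 0.15 and 0.06 when ozonated olive oil replicate 2 was.

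CUL3 machinery and its BTB adaptors (33 tested) had a median of -0.01, with 12 higher and 10 lower within both numbers and none with an unadjusted p under 0.05. ENC1, an adaptor reported to lower NRF2 protein, lay at 67.4 and 20.4 CPM with the ozonated oil and at 126.4 and 67.1 CPM with olive oil (log2 fold change -1.14 ± 0.62, SE). Its groups overlapped slightly across the numbers, and its value ran to -0.52 when ozonated olive oil replicate 2 was left out and to -2.24 when replicate 1 of that oil was. KBTBD6 had -0.38 ± 0.24, KLHL12 -0.13 ± 0.11 and the exchange factor CAND1, the most abundant, -0.05 ± 0.10. KBTBD6 ran from -0.12 without olive oil replicate 2 to -0.60 without ozonated olive oil replicate 2.

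Selective autophagy receptors and ATG8 proteins, the family that p62 belongs to or binds, had a median of 0.17 over 17 genes, with 12 higher and 2 lower within both numbers. Again 0 passed the adjusted quasi-likelihood test of edgeR, and 2 had an unadjusted p under 0.05. GABARAPL1, an ATG8 protein, lay at 66.6 and 62.8 CPM with the ozonated oil and at 31.8 and 24.4 CPM with olive oil (1.20 ± 0.17, SE). It was called by DESeq2 (adjusted p = 1.78e-05) and by the edgeR exact test (adjusted p = 0.000438). Its adjusted p ran from 1.98e-06 to 1 over the alternatives, lowest where edgeR took the number as a block. The mitophagy receptor BNIP3L lay at 144.3 and 93.1 CPM against 72.3 and 40.0 CPM with olive oil (1.08 ± 0.35), and was 0.72 without olive oil replicate 2. MAP1LC3B, another ATG8 protein, had 0.28 ± 0.12. BNIP3 lay at 357.0 and 172.0 CPM with the ozonated oil and at 194.5 and 79.3 CPM with olive oil, where the numbers overlapped across the oils (0.95 ± 0.54, and 0.33 without ozonated olive oil replicate 1).

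Genes downstream of the circuit were described from 3 lists. NRF2 antioxidant and NADPH genes had a median of 0.27 over 32 tested genes of 34 (AKR1B10 and GPX2 were too low), with 26 higher and 0 lower within both numbers and 9 with an unadjusted p under 0.05, all higher. OSGIN1, an NRF2 target, lay at 21.95 and 47.7 CPM with the ozonated oil and at 8.01 and 14.2 CPM with olive oil (1.65 ± 0.47, SE), and was 0.98 without ozonated olive oil replicate 2. DESeq2 called it (adjusted p = 0.0473). Its adjusted p ran from 1.37e-06 to 1 over the alternatives, lowest where edgeR took the number as a block. The export pump gene ABCC2 lay at 88.3 and 71.7 CPM against 57.2 and 44.3 CPM with olive oil (0.66 ± 0.18). GCLM, the modifier subunit of glutamate-cysteine ligase, lay at 224.4 and 257.7 CPM with the ozonated oil and at 136.4 and 167.9 CPM with olive oil, so the groups did not overlap. SRXN1, which repairs oxidised peroxiredoxins, lay at 176.5 and 231.3 CPM against 140.9 and 160.6 CPM with olive oil (0.44 ± 0.17, and 0.23 without ozonated olive oil replicate 2).

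NQO1, the quinone reductase, had its levels set mostly by number, at 726.2 and 1306.7 CPM with the ozonated oil and 550.4 and 1133.6 CPM with olive oil. Its value of 0.27 ± 0.43 (SE) turned to -0.16 when olive oil replicate 1 was left out and to -0.21 when ozonated olive oil replicate 2 was. The cystine transporter gene SLC7A11 lay at 201.7 and 298.0 CPM with the ozonated oil and at 88.3 and 198.6 CPM with olive oil, and its value of 0.80 ± 0.42 (SE) was 0.33 without olive oil replicate 1 and 1.502 without olive oil replicate 2. The thioredoxin reductase gene TXNRD1 lay at 1001.3 and 1457.1 CPM against 726.4 and 983.8 CPM with olive oil (0.52 ± 0.24, and 0.23 without ozonated olive oil replicate 2). Both genes were higher in number 2 with either oil.

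Heme and iron genes under BACH1 or NRF2 had a median of 0.38 over 10 genes, with 9 higher and 0 lower within both numbers and 3 with an unadjusted p under 0.05. HMOX1 lay at 347.4 and 1045.5 CPM with the ozonated oil and at 38.8 and 79.4 CPM with olive oil. Its groups did not overlap, and its log2 fold change was 3.56 ± 0.66 (SE, unadjusted p = 0.00312). HMOX1 was called by DESeq2 (adjusted p = 0.0127) and by the edgeR exact test (adjusted p = 0.000254). Its adjusted p ran from 5.44e-12 to 1 over the alternatives, lowest where edgeR took the number as a block. The ferritin light chain gene FTL lay at 1298 and 2014 CPM against 928 and 1151 CPM with olive oil, and FTH1 at 3753 and 3484 CPM with the ozonated oil against 2729 and 2072 CPM with olive oil, with the reservation that both have many processed pseudogenes. FTL had 0.32 without ozonated olive oil replicate 2. Proteasome subunits, the textbook targets of NRF1, had a median of 0.12 over 33 genes, with 26 higher and 1 lower within both numbers, and 1 unadjusted p under 0.05. That gene was PSMB7, at 256.0 and 235.9 CPM with the ozonated oil and 205.8 and 192.4 CPM with olive oil. PSMC4 and PSMD11 had 0.21 each, and PSMD2, the most abundant, 0.11 ± 0.27, which turned to -0.15 when olive oil replicate 2 was left out and to -0.18 when ozonated olive oil replicate 1 was. For these lists too, 31.6% and 31.1% of all tested genes were higher and lower within both numbers. An unadjusted quasi-likelihood p under 0.05, as PSMB7 had, was found for 3.84% of all tested genes, with 1.99% higher. No gene of any list (163 tested) passed the adjusted quasi-likelihood test of edgeR. DESeq2 called 3 of them (GABARAPL1, OSGIN1 and HMOX1) and the edgeR exact test 2 (GABARAPL1 and HMOX1), all higher, beside 0.438% and 0.236% of all tested genes.

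**Figure D5:**
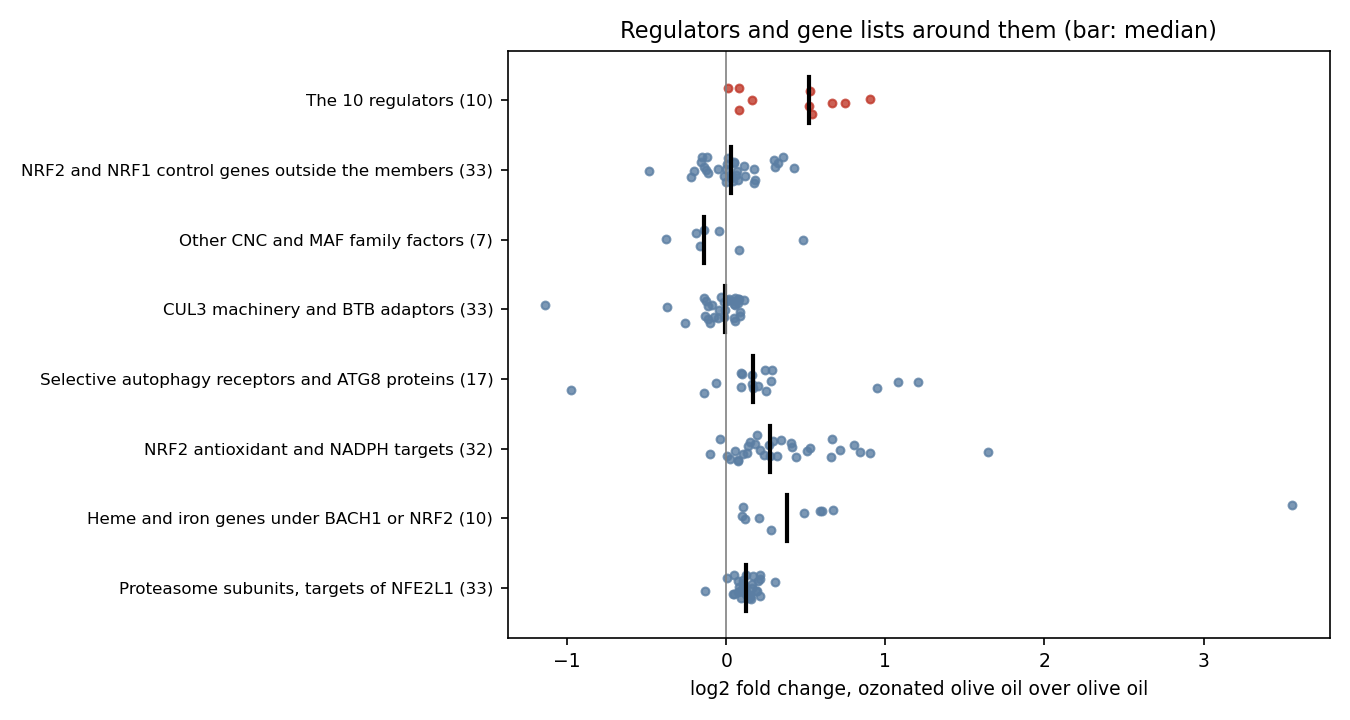
Log2 fold change (x axis, ozonated olive oil over olive oil) of the 10 regulators (red) and of tested genes in 7 lists around them (blue), with the number of genes in brackets and black bars at medians. The regulators' median is 0.52, and the list medians run from -0.14 (other CNC and MAF factors) to 0.38 (heme and iron genes).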

How the data were processed

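RNA of A375 cells was taken with Tri reagent and made into libraries with a directional kit, per the labels' protocols. The deposited table holds raw counts in 1 column per library, with 3 identifiers per gene. The build was hg38, and the tools named, without role or order, include HISAT2 2.1.0, StringTie 1.3.4d and edgeR, per the submitters' processing notes. How reads were counted, with which strand setting and gene models, is not given in the sources used here. Antisense partners and near copies may thus not be separated. Rows without a symbol (617, at most 0.0494% of counts) were kept.

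Genes were kept by filterByExpr, scaled by TMM (factors from 0.972 to 1.017) and compared by edgeR 4.0.16 (R 4.3.3) with the two-sided quasi-likelihood test and no block, and p-values were adjusted over all tested genes by Benjamini-Hochberg, with a threshold of 0.05. CPM uses TMM-scaled library sizes, and log2 differences between single libraries use a prior count of 2. Standard errors are the fitted value over the root of its F. A two-sided exact permutation test of 2 against 2 libraries cannot go below p = 0.333, so none is given. Counting intervals are exact binomial and cover counting error only. No count in a library allows up to 3 counts, or 0.108 to 0.135 CPM by library. RefSeq on GRCh38.p14 (hg38) gave coordinates and promoter windows, and transcript lengths are from GENCODE 29.

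Members, lists and tests were chosen with earlier results of these data known. Named are all 10 members, the 3 genes of smallest p and the most abundant gene of each list, 6 pathway outputs (HMOX1, NQO1, GCLM, SLC7A11, TXNRD1 and SRXN1), and the 3 nearest profiles of 5 members (1 of them is not reported here). Alternatives were 3 scalings, 2 filters, DESeq2 1.42.0, limma-voom 3.58.1, edgeR's exact test, a block by replicate number, and each library left out, where the lone library left in a group takes its spread from the other group.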

Additional observations from a re-analysis of the deposited data

How the results depend on the processing

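Over 13 alternatives and 10 genes, 115 of 130 log2 fold changes kept their sign and their side of the adjusted threshold, 9 newly passed it and 6 turned. Those that turned belonged to CUL3 (0.01), which was -0.00094 with upper quartile scaling, -0.032 with library totals alone and -0.038 to 0.059 with each library left out (-0.0064 without olive oil replicate 2), and to NFE2L1 (0.08), which was -0.10 to 0.25 with each library left out (-0.07 without olive oil replicate 2). The lowest values were those without ozonated olive oil replicate 1. The cause was not tested. The largest shift of the median of all genes by a scaling was -0.04 on the log2 scale, with library totals alone.

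Genes called over the whole table numbered 0 in the main result, 65 with DESeq2 (2 of the 10 regulators) and 35 with the edgeR exact test (1 of the 10). They numbered 0 with limma-voom (541 with an unadjusted p under 0.05), and 0 with each other scaling and filter. With a library left out the count was 0 to 4, and 0 of the 10 regulators in each case. Leaving a library out leaves the numbers unequal between the oils.

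The labels do not say what the numbers 1 and 2 stand for, and the 2 pairs were not taken as paired. With the replicate number as a block, edgeR called 841 genes (5.67%; 468 higher, 373 lower), among them 6 of the 10 regulators, all higher: BACH1, MAFF, MAFG, MAFK, SQSTM1 and TRIM16. It also called 26 of the 163 tested genes of the lists, 25 higher and 1 lower (ENC1), of which 15 were NRF2 antioxidant and NADPH genes. Deviations of same-numbered libraries from their group means correlated with r = 0.672 over genes. Depth was not limiting for the regulators, whose lowest count was 916, where counting alone gives an SD of 3.3%.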
